A study of Mus musculus with 8 samples.

Results

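Fibroblast identity and the regulators of mesenchymal transition were followed as 10 genes in mouse adult fibroblasts (MAFs) that had or had not recurred after cisplatin. The genes were Prrx1, Twist1, Twist2, Snai1, Snai2, Zeb1, Zeb2, Fap, Thy1 and Pdgfra, and every probe set that the array annotation assigns to one of them was used. This gave 25 probe sets for 10 genes, of 45037 probe sets and 18193 genes on the array. A probe set is a group of short DNA probes for one transcript, and its value is a log2 signal, so that a difference of 1 is a 2-fold difference. The cells came from the peritoneal fascia of adult mice with loxP sites on both copies of the retinoblastoma gene, and all 4 populations expressed p53DD, a dominant negative fragment that blocks the p53 protein. Cre Recurred cells had received an adenovirus with GFP-Cre, which deletes part of Rb, and had then grown out after 24 h of cisplatin, whereas Cre Naïve cells had lost RB in the same way without cisplatin. GFP Recurred cells had received an adenovirus with GFP alone, kept RB and had grown out after cisplatin, whereas GFP Naïve cells kept RB and were untreated. Each population was measured on 2 Affymetrix whole-genome mouse arrays, 8 in all. The infected cells were cultured as pools, p53DD and Cre were delivered by virus rather than by a transgene of the mice, and the age, sex and strain of the mice are not given in the sources used here. The titles call the arrays of a population biological replicates, and the methods state at least 2 independently generated populations. RNA was taken from whole cultures, so that fewer cells expressing a gene and less RNA per cell cannot be told apart.

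Mesenchymal transition is the program by which a cell with epithelial junctions becomes a migrating, matrix-producing cell, and fibroblasts keep much of that program switched on. The Snail factors (Snai1, Snai2) and the Zeb factors (Zeb1, Zeb2) are zinc finger proteins that repress epithelial genes such as Cdh1, the gene of E-cadherin, through DNA motifs called E-boxes, and the Twist factors (Twist1, Twist2) are basic helix-loop-helix proteins that bind E-boxes together with E proteins. Prrx1 is a paired-type homeobox factor of embryonic and adult connective tissue, Fap a surface protease of activated fibroblasts, Thy1 a lipid-anchored surface glycoprotein, and Pdgfra a receptor for platelet-derived growth factors by which many fibroblasts are recognised.

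The bases before the transcription start are shown for Prrx1 and Twist2, the transcription factor genes that were lower in Cre Recurred than in GFP Recurred cells, for Twist1, the close relative of Twist2 whose difference did not pass the test, and for Snai1. Each is the 250 bases upstream of the RefSeq start in the build GRCm38.p6, written 5′ to 3′ along the gene's strand. Prrx1 lies at chr1:163313651-163313900 on the minus strand, Twist2 at chr1:91801211-91801460, Twist1 at chr12:33957421-33957670 and Snai1 at chr2:167537945-167538194, these 3 on the plus strand. In the first 3 sequences capitals mark CpG dinucleotides, the sites of DNA methylation in mammals, and in Snai1 they mark an E-box.
Prrx1: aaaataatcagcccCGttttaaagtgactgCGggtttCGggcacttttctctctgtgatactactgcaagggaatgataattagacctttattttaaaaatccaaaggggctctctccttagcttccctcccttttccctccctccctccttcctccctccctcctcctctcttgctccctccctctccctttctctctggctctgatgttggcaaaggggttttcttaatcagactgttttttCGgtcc
Twist2: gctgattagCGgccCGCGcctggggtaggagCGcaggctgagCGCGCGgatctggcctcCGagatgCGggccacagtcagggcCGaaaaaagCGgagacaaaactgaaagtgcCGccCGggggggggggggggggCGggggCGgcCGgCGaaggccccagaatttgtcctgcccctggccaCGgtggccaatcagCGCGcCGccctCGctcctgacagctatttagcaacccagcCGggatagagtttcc
Twist1: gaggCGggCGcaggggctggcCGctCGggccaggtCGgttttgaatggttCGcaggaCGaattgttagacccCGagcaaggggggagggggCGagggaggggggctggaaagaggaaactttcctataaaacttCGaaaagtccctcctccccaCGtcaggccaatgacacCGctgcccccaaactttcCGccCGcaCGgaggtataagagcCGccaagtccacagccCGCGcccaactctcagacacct
Snai1: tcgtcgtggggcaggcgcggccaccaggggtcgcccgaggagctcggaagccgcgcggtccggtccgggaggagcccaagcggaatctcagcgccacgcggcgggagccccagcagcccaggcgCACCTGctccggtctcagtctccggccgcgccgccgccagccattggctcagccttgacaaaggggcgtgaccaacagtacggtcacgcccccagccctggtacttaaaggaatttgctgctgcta

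The windows of Prrx1 and Twist2 differed in base composition although both genes were lower. Prrx1 held 4 CpG and 47.6% G and C, Twist2 held 23 CpG and 68.8%, and Twist1 held 18 CpG and 62.4%, against a median of 6 CpG and 52.4% over 32851 windows of the same length. At most 4 CpG were found in 44.4% of all windows and at least 23 in 13.3%. The letters CANNTG, the general form of an E-box, were searched on both strands, which read the same because the motif is its own complement. They occurred in none of the windows of Prrx1, Twist1 and Twist2, once in Snai1 and once in Pdgfra, and in 66.2% of all windows. The E-box of Snai1 reads CACCTG and begins 126 bases before the start. CACCTG and its complement CAGGTG, the form bound by Snail and Zeb factors, occurred in 17.2% of all windows. The matches are a description of these windows, and neither binding nor methylation was measured on the arrays. Windows were found for 6 of the 10 genes, and Snai2, Zeb1, Fap and Thy1 are named only.

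The arrays were first checked as a whole. Median log2 signals lay between 5.38 and 5.41. Rb1 at its brighter probe set was 4.98 and 5.45 on the Cre Recurred arrays and 6.21 and 5.72 on the Cre Naïve arrays, against 8.21 and 8.78 on the GFP Recurred and 7.98 and 8.07 on the GFP Naïve arrays, so that the labels and the signals ran the same way. Vim, Col1a1 and Col1a2, fibroblast genes, had log2 signals between 11.92 and 13.84 on every array. Cdh1 was at 2.69 to 2.85, the pan-leukocyte gene Ptprc at 2.95 to 3.19 and the endothelial gene Pecam1 at 3.22 to 3.91, all under the median of all values, 5.39. Other markers of these cell types were above it, namely Epcam at 5.65 to 6.60, Csf1r at 6.37 to 8.19 and Kdr at 5.91 to 6.23 on every array, and Lyz2 on both replicates numbered 1 of the naïve populations (5.52 in Cre Naïve and 6.92 in GFP Naïve cells). Arrays did not group by population throughout. All 4 naïve arrays correlated better with an array of another population than with their own replicate. Cre Naïve replicate 2 had a Pearson r across probe sets of 0.9917 with Cre Recurred replicate 2, which was also the highest value of that array, and 0.9855 with its own replicate. GFP Naïve replicate 1 and Cre Naïve replicate 1 were at 0.9941 with each other, and GFP Naïve replicate 2 was at 0.9905 with GFP Recurred replicate 1, against 0.9865 between the GFP Naïve replicates. Cre Recurred replicate 1 had the lowest correlations with the arrays of other populations (0.9693 to 0.9825). Results are therefore given with and without single arrays where it matters. A difference was called where it reached 1.5-fold with an adjusted p under 0.25, the thresholds of the study, in a limma fit over all probe sets. With 2 arrays on each side the smallest two-sided p of an exact permutation test is 0.333, so p values for single genes come from that fit.

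Of the 5 comparisons, Cre Recurred against GFP Recurred cells gave the most member calls. The log2 signals of Prrx1, Twist2 and Fap were lower and that of Thy1 was higher in the cells without RB, and the other 6 genes did not pass. Of 25 probe sets 8 were called (32%), 7 lower and 1 higher, against 8.85% of all probe sets, 4.78% lower and 4.08% higher. Prrx1 contributed 5 of the 8, and probe sets of one gene read the same RNA. Counted by gene at the brightest probe set, 3 of 10 were lower, against 6.55% of all genes, and 1 was higher, against 4.81%. The members were chosen with earlier results of these data known, so an excess over these shares is a description and not a test. The median log2 fold change of the 10 genes was -0.54, with 9 below 0, against a median of 0.04 over all genes. No member passed at an adjusted p under 0.05 in limma. No member was called when either GFP Recurred array, or replicate 1 of the Cre Recurred cells, was left out, and 7 probe sets were called when replicate 2 of the Cre Recurred cells was left out. Over the whole array the calls went the same way, with 3988 in the full fit and 42 to 346 in the fits that called no member. The SAM-type statistic also called 8 member probe sets, and its count over all probe sets is not given here.

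**Figure D1:**
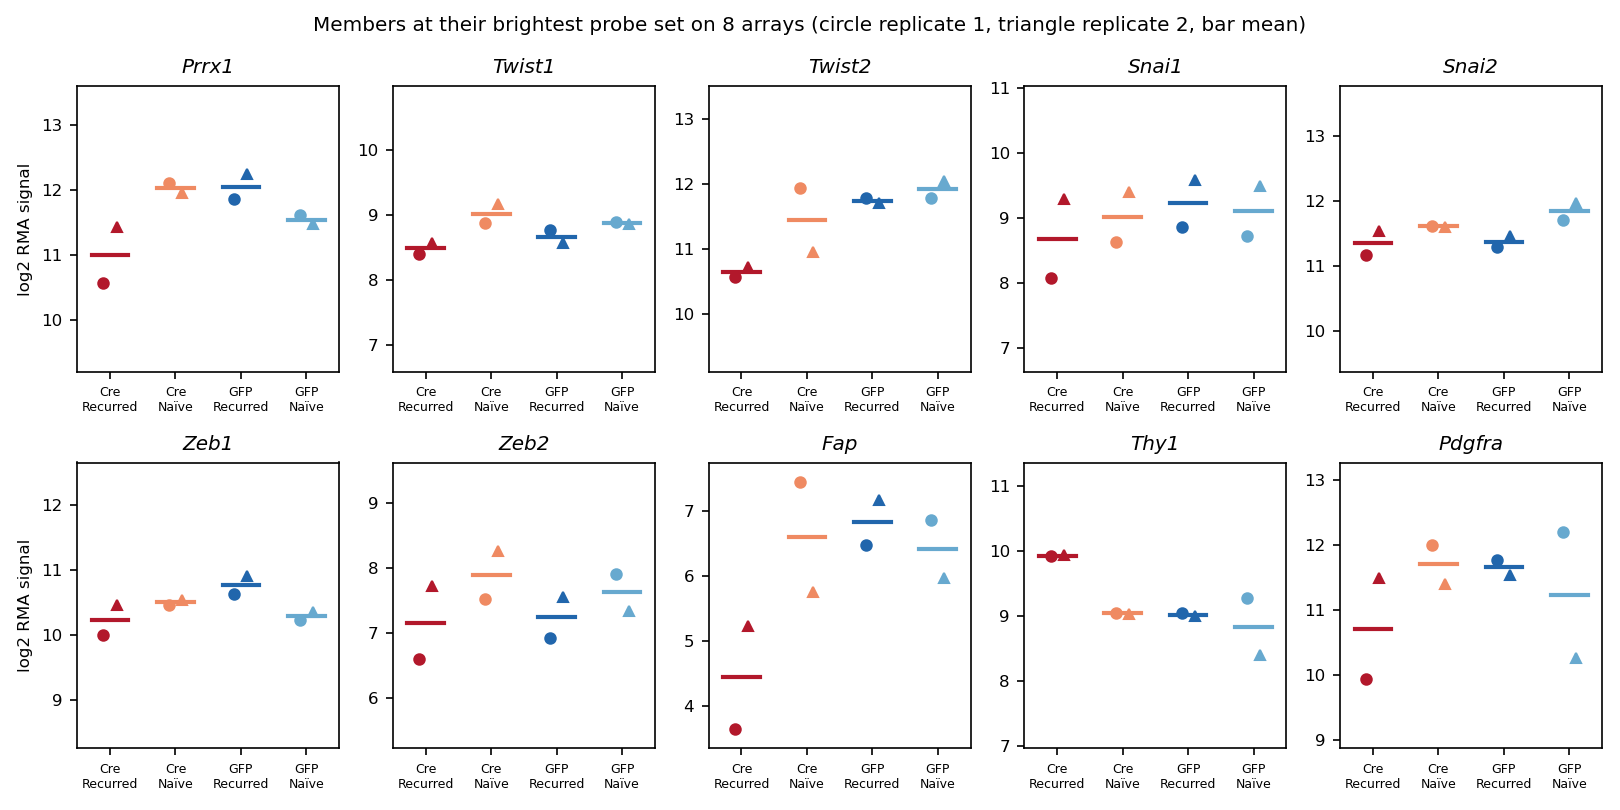
Log2 RMA signal (vertical axes, all spanning the same range) of the 10 genes at their brightest probe set, by population; circles are replicate 1, triangles replicate 2 and bars the mean of 2 arrays. Both Cre Recurred arrays lie below the 6 others for Prrx1, Twist2 and Fap and above them for Thy1.

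Prrx1 marks connective tissue lineages and had the most probe sets among the members, 5 of its 6 being called. The brightest, 1425528_at, read 10.56 and 11.43 on the Cre Recurred arrays and 12.10 and 11.95 on the Cre Naïve arrays, against 11.86 and 12.24 on the GFP Recurred and 11.61 and 11.47 on the GFP Naïve arrays. Both Cre Recurred arrays were thus below all others, narrowly so for replicate 2. The log2 fold change of Cre Recurred over GFP Recurred cells was -1.05 (SE 0.28, n = 2 arrays each), or 2.08-fold lower, with an adjusted p from limma of 0.128. The probe sets 1439774_at, 1432129_a_at, 1425527_at and 1425526_a_at had log2 fold changes of -1.05, -1.02, -0.81 and -0.83, with adjusted p from 0.0829 to 0.215. The sixth, 1458004_at, stayed between 3.21 and 3.53 on all arrays, at the low end of the scale, and was not called. Across the 8 arrays the 5 brighter probe sets correlated with each other at r from 0.681 to 0.948, a description over arrays that share their populations. By population mean, Prrx1 was at 11.00 ± 0.62 in Cre Recurred, 12.02 ± 0.11 in Cre Naïve, 12.05 ± 0.27 in GFP Recurred and 11.54 ± 0.10 in GFP Naïve cells (SD, n = 2 each). The GFP Recurred and Cre Naïve means lay closer together than the spread of their replicates. Without Cre Recurred replicate 1 the log2 fold change against GFP Recurred cells was -0.62, with an adjusted p from limma of 0.415.

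Twist2, which is expressed in dermal and other connective tissue and holds progenitors in an immature state, had close replicates in Cre Recurred cells. Its log2 signal was 10.57 and 10.73 on the Cre Recurred and 11.94 and 10.96 on the Cre Naïve arrays, against 11.79 and 11.71 on the GFP Recurred and 11.79 and 12.06 on the GFP Naïve arrays. Cre Naïve replicate 2 lay between the Cre Recurred arrays and the other 5. The log2 fold change of Cre Recurred over GFP Recurred cells was -1.10 (SE 0.29), 2.14-fold lower, with an adjusted p from limma of 0.128, and it stayed between -1.18 and -1.02 when one of those 4 arrays was left out, with the call lost in 3 of these 4 fits. Twist1, its relative with roles in cranial and limb mesenchyme, had signals of 8.40 and 8.56 on the Cre Recurred and 8.87 and 9.16 on the Cre Naïve arrays, against 8.76 and 8.56 on the GFP Recurred and 8.89 and 8.86 on the GFP Naïve arrays. Its values spanned less than 1 log2 unit over all arrays. Its log2 fold change in the same comparison was -0.18 (95% interval -0.54 to 0.17), with an adjusted p from limma of 0.619, so that a fall of Twist1 as large as the one estimated for Twist2 lay outside its interval. The difference between the paralogs was not tested.

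Fap, a membrane protease that cleaves after proline and is abundant on activated fibroblasts, had the largest estimated fold difference among the members. It read 3.65 and 5.24 on the Cre Recurred and 7.45 and 5.76 on the Cre Naïve arrays, against 6.48 and 7.18 on the GFP Recurred and 6.86 and 5.97 on the GFP Naïve arrays. Both Cre Recurred arrays were below the median of all values, 5.39, and Cre Naïve replicates differed by 1.69 log2 units. The log2 fold change of Cre Recurred over GFP Recurred cells was -2.39 (SE 0.69), 5.23-fold lower, with an adjusted p from limma of 0.15 and a 95% interval of -4.02 to -0.75. It was -1.59 without Cre Recurred replicate 1 and -2.73 without GFP Recurred replicate 1, and neither passed. Cre Recurred replicate 1, at 3.65, was in the range of the macrophage gene Adgre1 (3.14 to 3.71), so that less RNA on that array could not have been told apart and the fold is uncertain in size. The gene has 1 probe set, 1417552_at, so no second reading was possible, and the study's own gene listing names that probe set Cd55 where the array annotation names it Fap.

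Thy1, known as CD90 and used to isolate fibroblasts and mesenchymal stromal cells, was the one member called in the other direction. Its signal was 9.92 and 9.93 on the Cre Recurred and 9.05 and 9.03 on the Cre Naïve arrays, against 9.04 and 8.99 on the GFP Recurred and 9.27 and 8.39 on the GFP Naïve arrays. The replicates of 3 populations were nearly equal, and GFP Naïve replicates differed by 0.88. The log2 fold change of Cre Recurred over GFP Recurred cells was 0.91 (SE 0.26), 1.88-fold higher, with an adjusted p from limma of 0.145. It was 0.88 to 0.94 without any one of the 4 arrays compared, but all 4 of these fits gave an adjusted p over 0.25 (0.26 to 0.505).

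**Figure D2:**
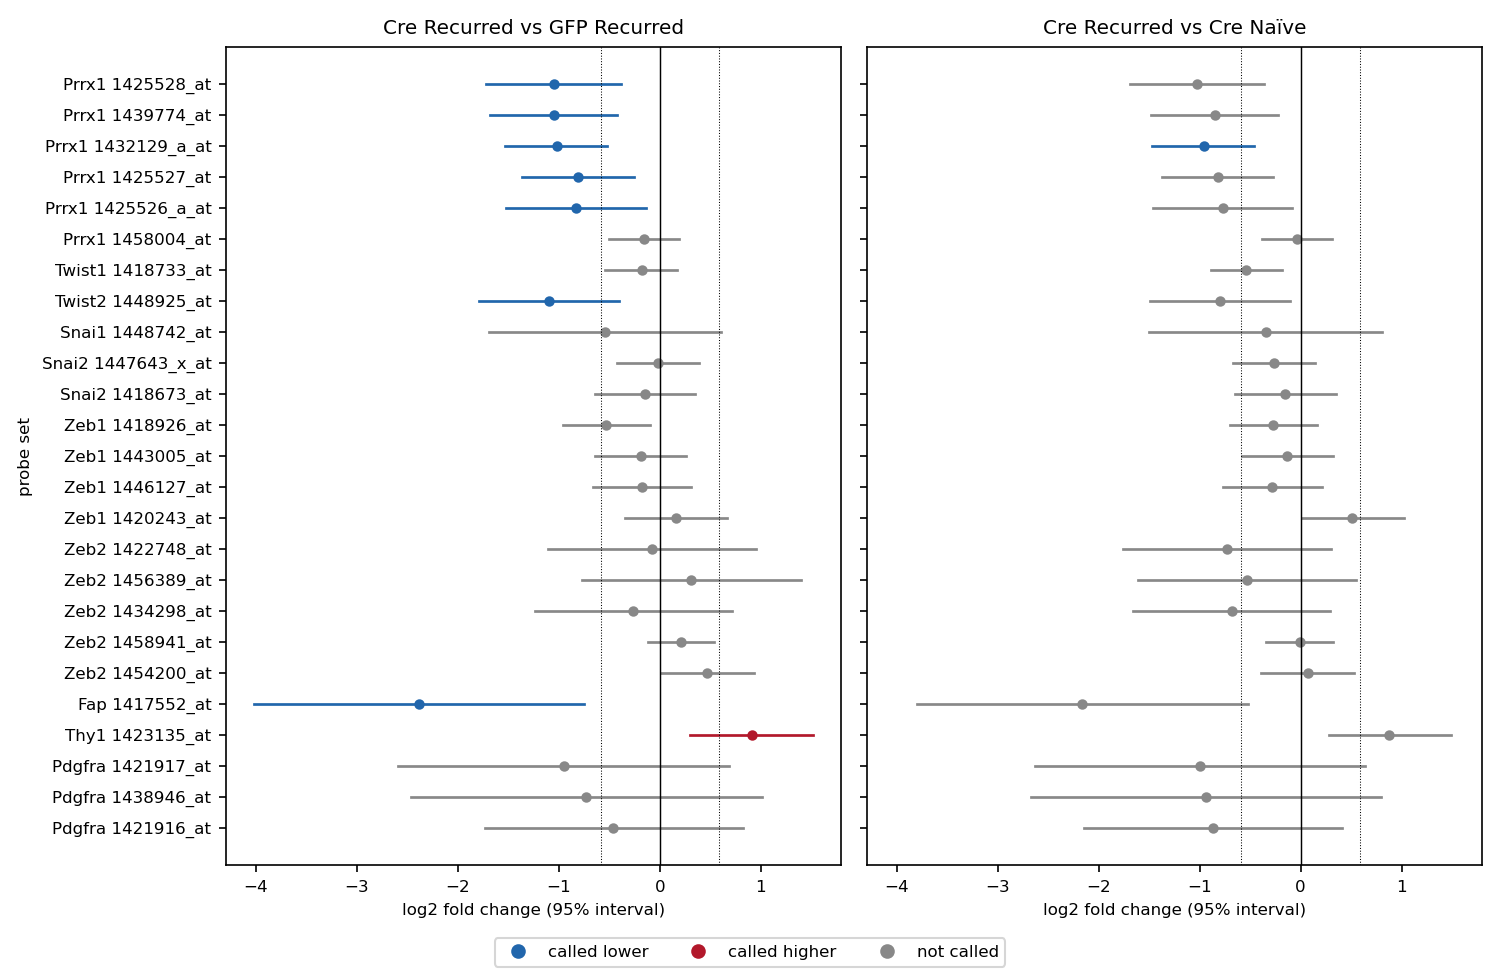
Log2 fold change with its 95% interval from limma (horizontal axis) of all 25 member probe sets, for Cre Recurred over GFP Recurred cells on the left and over Cre Naïve cells on the right; dotted lines mark 1.5-fold. On the left 7 probe sets of Prrx1, Twist2 and Fap are called lower and the one of Thy1 higher, and on the right 1 probe set of Prrx1 is called lower.

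The Snail and Zeb repressors did not pass in Cre Recurred against GFP Recurred cells. Snai1, a repressor with a short-lived protein, was at 8.08 and 9.29 on the Cre Recurred and 8.64 and 9.41 on the Cre Naïve arrays, against 8.87 and 9.59 on the GFP Recurred and 8.72 and 9.49 on the GFP Naïve arrays. Replicate 2 was above replicate 1 in all 4 populations, by 0.72 to 1.22 log2 units, an order found in 7.72% of all probe sets at any size and in 0.0133% with differences of at least 0.72. Snai1 had a log2 fold change of -0.54 (95% interval -1.69 to 0.61). Snai2, known as Slug and important in neural crest and connective tissue, had log2 fold changes of -0.02 (-0.42 to 0.39) at 1447643_x_at and -0.15 (-0.64 to 0.35) at 1418673_at. Its brighter probe set read 11.17 and 11.55 on the Cre Recurred and 11.62 and 11.61 on the Cre Naïve arrays, against 11.29 and 11.46 on the GFP Recurred and 11.71 and 11.98 on the GFP Naïve arrays. The recurred populations overlapped, the GFP Naïve arrays were above the 6 others, and all 8 lay within less than 1 log2 unit. A 1.5-fold difference of Snai2 between the recurred populations lay outside the interval at this probe set.

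Zeb1, which represses epithelial genes together with the corepressor CtBP, came closest to the thresholds among the uncalled genes. At its brightest probe set 1418926_at it read 10.01 and 10.46 on the Cre Recurred and 10.46 and 10.55 on the Cre Naïve arrays, against 10.63 and 10.91 on the GFP Recurred and 10.23 and 10.36 on the GFP Naïve arrays. The Cre Recurred arrays were below the GFP Recurred ones, overlapped the GFP Naïve ones and reached the lower Cre Naïve one to the second decimal. Its log2 fold change was -0.53 (SE 0.18) with an adjusted p from limma of 0.206, and it was not called because 1.5-fold corresponds to 0.58. The probe sets 1443005_at, 1446127_at and 1420243_at, all dimmer, had log2 fold changes of -0.19, -0.18 and 0.16. Zeb2, the related repressor with roles in neural crest and macrophages, was read by 5 probe sets, of which 1422748_at, 1456389_at and 1434298_at correlated at r from 0.904 to 0.972. At 1422748_at the signals were 6.59 and 7.72 on the Cre Recurred and 7.52 and 8.25 on the Cre Naïve arrays, against 6.92 and 7.55 on the GFP Recurred and 7.90 and 7.34 on the GFP Naïve arrays. The replicates of both recurred populations differed by more than the means of these populations did, and the 5 log2 fold changes ran from -0.27 to 0.47. The last of these belonged to 1454200_at, which read 3.40 to 4.24 over all arrays and had an adjusted p from limma of 0.285.

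Pdgfra, the receptor gene, was estimated lower, but its replicates differed widely and it did not pass. The probe set 1421917_at read 9.93 and 11.48 on the Cre Recurred and 12.00 and 11.40 on the Cre Naïve arrays, against 11.77 and 11.54 on the GFP Recurred and 12.20 and 10.26 on the GFP Naïve arrays. Cre Recurred replicate 1 and GFP Naïve replicate 2 were the low arrays, and replicates of GFP Naïve cells differed by 1.94 log2 units. Cre Recurred over GFP Recurred cells gave a log2 fold change of -0.95 (95% interval -2.59 to 0.68) with an adjusted p from limma of 0.561. The probe sets 1438946_at and 1421916_at followed the same arrays (r of 0.943 to 0.971 among the 3) and had log2 fold changes of -0.73 and -0.46.

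**Figure D3:**
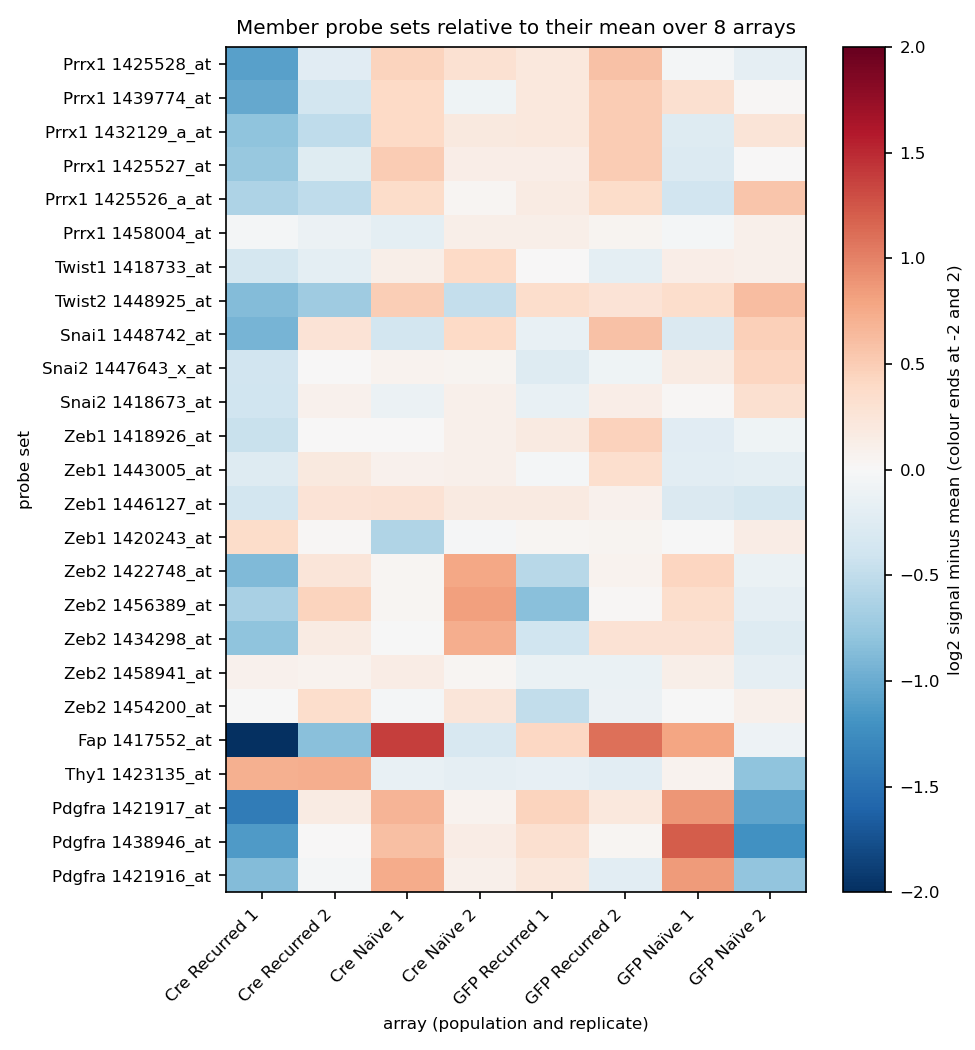
Log2 signal of each of the 25 member probe sets (rows) on each of the 8 arrays (columns), less the mean of the probe set over 8 arrays; blue is below and red above that mean. Cre Recurred replicate 1 is blue for most members, while Cre Recurred replicate 2 is blue mainly for Prrx1, Twist2 and Fap, and both are red for Thy1.

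The Cre Recurred replicates were unequal across the members. The median of the 10 genes relative to their means over the 8 arrays was -0.88 on Cre Recurred replicate 1 and 0.00 on replicate 2, against -0.10 to 0.24 on the 6 other arrays. Both Cre Recurred arrays lay below the range of the 6 other arrays for 6 of 25 probe sets (4 of Prrx1, Twist2 and Fap), against 7.37% of all probe sets, and above it for 1 (Thy1), against 11.9% of all probe sets. The 6 fibroblast marker genes Col1a1, Col1a2, Col3a1, Dcn, Pdgfrb and Vim showed the same inequality, with a median of -1.11 on Cre Recurred replicate 1 and 0.09 on replicate 2. Of these 6 genes 1 was called lower in Cre Recurred than in GFP Recurred cells, Dcn, against 6.55% of all genes. Without Cre Recurred replicate 1 or either GFP Recurred array 0 were called, the median log2 fold change being -0.24 without the first of these and -0.80 with all arrays, and without Cre Recurred replicate 2, where 4985 probe sets were called in all, 5 were lower.

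Recurrence in cells without RB was asked by setting Cre Recurred against Cre Naïve cells. Of the 25 probe sets 1 was called (4%), against 1.16% of all probe sets. It was Prrx1 at 1432129_a_at, with signals of 9.09 and 9.39 in Cre Recurred cells, against 10.30 and 10.10 in Cre Naïve cells, a log2 fold change of -0.96 (SE 0.21) and an adjusted p from limma of 0.248, just under the threshold. At the brightest probe set of each gene 0 of 10 were called lower and 0 higher, against 1.2% and 0.456% of all genes. A statistic of the SAM type called 1 member probe set as well, that of Thy1, and its count over all probe sets is not given here. The log2 fold changes were -1.03 for Prrx1, -0.80 for Twist2, -2.16 for Fap and 0.88 for Thy1, with adjusted p from limma of 0.308 to 0.378, and -0.54 for Twist1 (0.31). Those of Snai1, Snai2, Zeb1, Zeb2 and Pdgfra were all below 0, with that of Zeb2 at -0.73 and the estimate for Pdgfra 1.99-fold lower, and none passed. The count depended on single arrays. It rose when replicate 2 of either population was left out and fell when replicate 1 of either was. The calls over all probe sets in these fits are not set beside it, so the rise is not a result about the members. In the fit that left out Cre Naïve replicate 2, the log2 difference of Twist2 reached -1.28 (adjusted p from limma 0.0529) and that of Fap -3.00 (0.164). Leaving out Cre Naïve replicate 1 instead gave -0.31 (0.724) for Twist2 and -1.31 (0.705) for Fap. This comparison and the one above share the Cre Recurred arrays, so they are not separate evidence.

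Recurrence in cells that kept RB, and loss of RB without cisplatin, gave no member that passed. Between GFP Recurred and GFP Naïve cells 0 of 25 probe sets were called in limma, against 0.0133% of all probe sets. The SAM-type statistic called 0 as well. Zeb1 at 1418926_at had a log2 fold change of 0.47 (95% interval 0.04 to 0.90) and Snai2 at 1447643_x_at one of -0.47 (-0.87 to -0.06). Both had an adjusted p from limma of 0.871. Prrx1 had a log2 fold change of 0.51 (-0.16 to 1.17) and Fap one of 0.42 (-1.22 to 2.05). Between Cre Naïve and GFP Naïve cells 0 of 25 were called in limma, against 0% of all probe sets, and 0 by the SAM-type statistic. The largest log2 fold change of a member probe set there was 0.55, that of Zeb1 at 1446127_at (adjusted p from limma 0.997). Even Rb1, with a log2 fold change of -2.06, had an adjusted p from limma of 0.997 in that comparison, so the test left large differences uncalled there. The log2 fold changes of the 10 genes lay between -0.47 and 0.48.

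The difference between the recurrence effects was tested as the interaction of RB status with recurrence, which is the change in Cre cells less the change in GFP cells. Of 25 probe sets 0 passed in limma, against 0.4% of all probe sets. For Prrx1 at 1425528_at the interaction was -1.53 (SE 0.40), the recurrence effect being -1.03 in Cre cells and 0.51 in GFP cells, with an adjusted p from limma of 0.339. Fap had an interaction of -2.57 (95% interval -4.89 to -0.26) and an adjusted p from limma of 0.456, Twist2 one of -0.63 (0.635) and Thy1 one of 0.70 (0.548). No member was thus shown to respond differently to cisplatin recurrence with and without RB. The count rose when the second Cre Recurred, Cre Naïve or GFP Naïve array was dropped, most with the first of these. The calls over all probe sets in those fits are not set beside it, so the rise is not a result about the members.

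Genes that surround the members in the fibroblast program were counted in Cre Recurred against GFP Recurred cells. This list and those below were chosen with earlier results of these data known. An excess over the share of all genes is therefore a description and not a test. Of 28 further fibroblast genes 10 were called lower and 0 higher, against 6.55% and 4.81% of all genes, with a median log2 fold change of -0.39 against 0.04 for all genes. Foxf1, a forkhead factor of visceral mesenchyme, read 5.19 and 6.13 on the Cre Recurred arrays against 8.81 and 8.38 on the GFP Recurred arrays, a log2 fold change of -2.93 (SE 0.45) with an adjusted p from limma of 0.049. Dpt, the gene of the matrix protein dermatopontin, read 5.31 and 7.26 on the Cre Recurred arrays and 10.31 and 10.53 on the GFP Recurred arrays, a log2 difference of -4.13 with an adjusted p from limma of 0.0984. Has1, a hyaluronan synthase, and Mfap5, a microfibril protein, had log2 fold changes of -1.05 and -3.03. The other 6 were Dcn, Ddr2, Cd34, Cd44, Cxcl12 and Osr2, and Dcn is the same gene as the fibroblast marker called above. Not all of these calls set Cre Recurred cells apart from naïve ones. Cd34 read 8.64 and 7.41 on the Cre Recurred and 8.65 and 6.92 on the Cre Naïve arrays. Osr2 read 3.75 and 4.13 on the Cre Recurred and 7.18 and 3.92 on the Cre Naïve arrays. It read 8.36 and 6.24 on the GFP Recurred and 4.43 and 5.11 on the GFP Naïve arrays. Mfap5, Ddr2 and Cd44 overlapped as well, with 8.90, 10.08 and 12.34 on Cre Naïve replicate 2. Their higher Cre Recurred arrays read 9.06, 10.20 and 12.37. Has1 read 6.37 on GFP Naïve replicate 1 and 6.42 on Cre Recurred replicate 2. For Dpt, Foxf1, Dcn and Cxcl12 both Cre Recurred arrays were below all naïve arrays, and Dpt was at 10.60 and 7.86 on the Cre Naïve arrays. Like the members, none of the 28 was called without Cre Recurred replicate 1 or without either GFP Recurred array, when the list median was -0.51 to -0.29, and 8 were called lower without Cre Recurred replicate 2. The summed linear signal of these 28 genes was 30200 and 41000 on the Cre Recurred arrays, against 47200 to 65600 on the 6 others. This sum is weighted to the brightest genes, such as Dcn and Cxcl12, and does not describe the whole list. In Cre Recurred against Cre Naïve cells 0 of the 28 were called, while 1.2% of all genes were called lower and 0.456% higher. The smallest adjusted p from limma was 0.338 there, and the median log2 fold change was -0.26, against 0.05 for all genes.

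Of 27 mesenchymal genes 3 were higher and 3 lower at the brightest probe set, against 4.81% and 6.55% of all genes, with a median log2 fold change of -0.46 against 0.04. Foxc2, a forkhead factor of mesoderm, read 9.38 and 8.63 on the Cre Recurred arrays against 4.54 and 4.87 on the GFP Recurred arrays (log2 fold change 4.30, adjusted p from limma 0.0727), but also 6.36 to 9.23 on the naïve arrays, so that the GFP Recurred arrays were the ones apart. Cdh2, the gene of N-cadherin, and the integrin subunit gene Itgb1 were higher by 1.36 and 0.69 on the log2 scale. Cdh2 read 10.41 and 10.20 on the Cre Recurred arrays, 8.74 and 9.15 on the GFP Recurred arrays and 8.86 to 9.92 on the naïve arrays. The matrix gene Tnc, the growth factor gene Tgfb1 and the gelatinase gene Mmp2 had log2 fold changes of -2.28, -1.12 and -1.90. The collagen gene Col5a1 was called lower at 2 of its 3 probe sets (-1.34 and -1.24) but not at the brightest (-0.80). Without Cre Recurred replicate 1 or either GFP Recurred array 0 of the 27 were called, and without Cre Recurred replicate 2 there were 11 lower, Col1a1, Col1a2 and Col3a1 among them, and 3 higher. Tnc was also the one gene of this list called against Cre Naïve cells, with -1.84. Cdh2 and Itgb1 had log2 fold changes of 0.92 and 0.35 there (adjusted p from limma 0.374 and 0.446).

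The epithelial genes that Snail, Zeb and Twist factors repress were counted in the same comparison. Of 27 genes 1 was higher and 0 lower at the brightest probe set, against 4.81% and 6.55% of all genes, with a median log2 fold change of 0.06 against 0.04 for all genes, and the one was the keratin gene Krt19. The tight junction gene Ocln was called lower at its dimmer probe set (-0.94, adjusted p from limma 0.158) but not at the brighter one (-0.18). Cdh1 was at 2.74 and 2.85 on the Cre Recurred arrays, against 2.71 and 2.74 on the GFP Recurred arrays, and Epcam was at 6.12 and 6.60 on the Cre Recurred arrays, against 6.17 and 6.60 on the GFP Recurred arrays. Of 27 genes 19 had means under the median of all values. Among 17 partners and relatives of the factors, 1 was called, Hand2, a basic helix-loop-helix factor that pairs with the same E proteins as Twist, at -0.83 on the log2 scale (adjusted p from limma 0.247). The corepressor gene Ctbp2 had a log2 fold change of -0.56 (0.209), under 1.5-fold. Prrx2, the paralog of Prrx1, read 9.33 and 10.15 on the Cre Recurred arrays against 10.30 and 10.90 on the GFP Recurred arrays, and its log2 fold change of -0.86 did not pass (0.4).

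**Figure D4:**
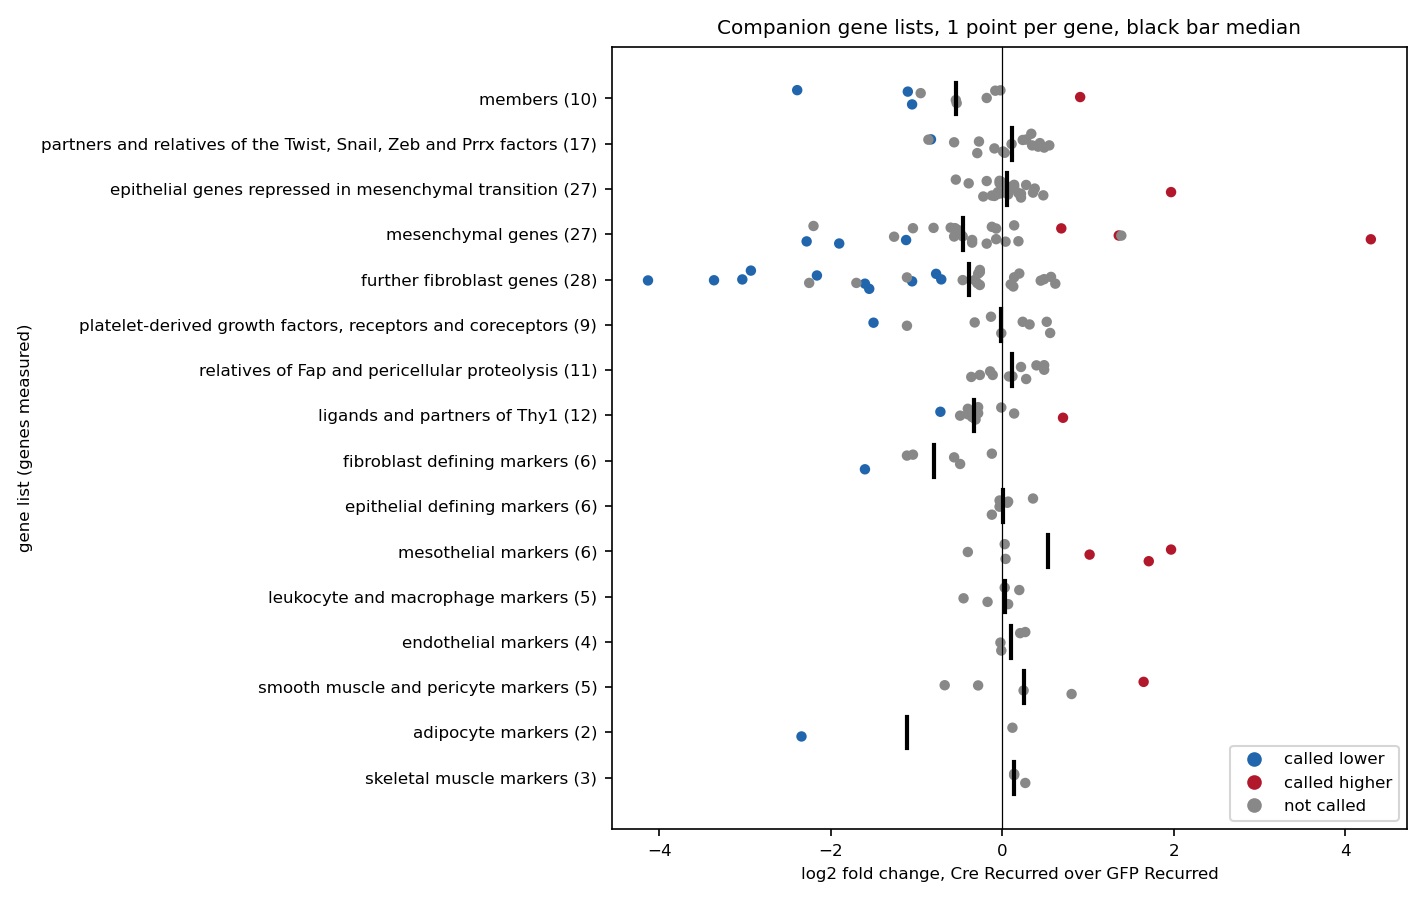
Log2 fold change of Cre Recurred over GFP Recurred cells (horizontal axis) for each gene of each list at its brightest probe set (1 point per gene, vertical jitter only), with the list median as a black bar; blue is called lower, red called higher and grey not called. The further fibroblast genes hold 10 called lower, the epithelial genes 1 called higher and the mesothelial markers 3 called higher. Lists share genes, and Krt19 is both the epithelial call and a mesothelial one.

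Ligands and partners of the surface members were counted as well. Between Cre Recurred and GFP Recurred cells 6.55% of all genes were called lower and 4.81% higher. Single calls in lists this short lie near these shares. Of 9 platelet-derived growth factor genes, receptors and coreceptors, 1 was called at the brightest probe set, the coreceptor gene Nrp2, at -1.50 (adjusted p from limma 0.175). The other coreceptor gene, Nrp1, was called higher at 3 of its 4 probe sets (0.61 to 0.78 on the log2 scale) and missed the thresholds at the brightest (0.56, 0.303). Of 11 relatives of Fap and genes of pericellular proteolysis 0 were called in limma, the smallest adjusted p being that of Prep, a cytosolic prolyl endopeptidase (0.49 log2, 0.131), followed by Serpinf2, the plasmin inhibitor (0.40, 0.302). Dpp4, the closest relative of Fap, was at 4.13 to 4.72 on all arrays. Of 12 ligands and partners of Thy1, the kinase gene Fyn was higher by 0.71 (0.249) and the caveolin gene Cav1 had a log2 fold change of -0.72 (0.243), both close to the threshold. The single calls in these lists, as well as those of Hand2 and Krt19 above, were lost without Cre Recurred replicate 1 or either GFP Recurred array. Without Cre Recurred replicate 2 that of Krt19 stayed and those of Nrp2, Fyn, Cav1 and Hand2 were lost, while Pdgfrb, Adgre5, Itgb5 and Sdc4 were called lower and Plaur and Serpinf2 higher.

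Some markers of other cell types were called as well. Of 6 mesothelial markers, genes of the lining of the peritoneum, 3 were called higher in Cre Recurred than in GFP Recurred cells, against 4.81% of all genes. These lists too were chosen with earlier results of these data known. In Cre Recurred against Cre Naïve cells 2 were called higher, against 0.456% of all genes. Msln read 8.85 and 7.82 on the Cre Recurred and 6.25 and 6.15 on the Cre Naïve arrays, against 6.87 and 6.38 on the GFP Recurred and 6.71 and 6.98 on the GFP Naïve arrays, with log2 fold changes of 1.71 over GFP Recurred and 2.14 over Cre Naïve cells (adjusted p from limma 0.0731 and 0.132). Krt7 was higher by 1.02 and 0.76 in these comparisons (0.0361 and 0.145), and Krt19 by 1.97 against GFP Recurred cells. Krt7 read 3.65 to 4.78 over all arrays, under the median of all values, 5.39. Krt19 read 7.23 and 6.26 on the Cre Recurred and 4.48 and 6.11 on the Cre Naïve arrays. It was not called against Cre Naïve cells (1.45, adjusted p from limma 0.39). Krt7 alone was called without Cre Recurred replicate 1 or GFP Recurred replicate 1, none of the 6 without GFP Recurred replicate 2, and all 3 without Cre Recurred replicate 2. The other markers of the list were not called. Upk3b and Lrrn4 stayed at 3.85 to 4.14 and at 2.71 to 2.99 on all arrays. Wt1 was at 4.30 and 5.96 on the Cre Recurred arrays against 5.19 and 5.87 on the GFP Recurred arrays. The summed linear signal of the 6 markers was 681 and 417 on the Cre Recurred arrays, against 195 to 256 on the others. This sum is weighted to the brightest genes, here Msln and Krt19, and does not describe the whole list. Of 5 smooth muscle and pericyte markers Des was called higher, by 1.65 and at 1 of its 2 probe sets, while Myh11 was at 4.53 or less on every array. Des read 7.28 and 7.49 on the Cre Recurred and 5.90 and 7.32 on the Cre Naïve arrays. Of 2 adipocyte markers Pparg had a log2 fold change of -2.34. Against Cre Naïve cells Des (0.77) and Pparg (-2.02) were not called (adjusted p from limma 0.483 and 0.371). The calls of Des and Pparg were lost without Cre Recurred replicate 1 or either GFP Recurred array. None of the 5 leukocyte and macrophage, 4 endothelial or 3 skeletal muscle markers was called. The part of these cell types in the values of Prrx1, Twist2, Fap and Thy1 was not tested.

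The genes whose pattern over the 8 arrays was most like that of a called member were taken by Pearson's r among 3345 genes that spanned at least 1 log2 unit. For Prrx1 they were Rcn3 (r 0.983), Zfp383 (0.981) and Enox1 (0.981). For Twist2 they were Mfsd9 (0.995), Inka1 (0.994) and Bnc1 (0.99), of which Bnc1 had a log2 fold change of -5.05 between Cre Recurred and GFP Recurred cells. For Fap they were Map3k8 (0.99), Dnajc1 (0.985) and Oxsm (0.985), and for Thy1 Ptk2b (0.979), Pstpip2 (0.97) and Gimap9 (0.959). Likeness was common, since 164 genes had an r over 0.9 with Prrx1, 237 with Twist2 and 253 with Fap, and 31 with Thy1. Among the members the highest r were those of Prrx1 with Fap (0.897), Prrx1 with Zeb1 (0.85) and Twist2 with Fap (0.825), and Twist2 with Thy1 was at -0.816. These values describe 8 arrays that share 4 populations.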

How the data were processed

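RNA of 8 cultures was hybridized to Affymetrix whole-genome mouse arrays, 2 per population. The authors deposited log2 signals from the Robust Multichip Average (RMA), which corrects background, normalizes quantiles across arrays and summarises each probe set. Its software is not given in the sources used here. Quantile normalization gives all arrays the same distribution, so values are relative within an array set.

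Of 45101 probe sets 64 controls were left out. The array annotation gave 34945 probe sets 1 symbol and 932 several, and probe sets with several named no gene. Where a gene had several, the brightest by mean signal stood for it. A model with 1 mean per population was fitted with limma 3.58.1 in R 4.3.3 (4 residual and 3.07 prior degrees of freedom), with Benjamini-Hochberg adjustment over 45037 probe sets. The study used SAM at 1.5-fold and an FDR under 25%. The same limits were applied to the limma values, with a stricter adjusted p under 0.05 and a SAM-type statistic as alternatives. The others were cyclic loess, median centring, a trended and robust prior, only the compared arrays, the 22518 brighter probe sets, the mean of a gene's probe sets, the replicate number as a block and leaving out each array. The fit was tested on simulated data. Lists were described by counts and medians with no set test, and some genes are in several lists.

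The genes named are the members, Rb1, up to 4 called genes per list and comparison by adjusted p (or the 2 with the smallest where none was called), a few defining markers and, for Prrx1, Twist2, Fap and Thy1, the 3 genes most like them. Ddr2, Cd34, Cd44, Cxcl12, Osr2, Ctbp2, Prrx2, Col3a1, Pdgfrb, Dpp4, Upk3b, Lrrn4, Wt1 and Myh11 were named after their values were seen. The members and lists were chosen with earlier results of these data known. Promoter windows came from RefSeq (GRCm38.p6). Figures were drawn with Python and matplotlib. Precision is limited by having 2 arrays per population.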

Additional observations from a re-analysis of the deposited data

Results flagged for a closer look

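For 3 of the 25 member probe sets all arrays moved in opposite directions upon recurrence with and without RB, both Cre Recurred arrays being below both Cre Naïve arrays and both GFP Recurred arrays above both GFP Naïve arrays. For Zeb1 the nearest Cre arrays were equal at 2 decimals. They were Prrx1 at 1425528_at, with an interaction of -1.53 on the log2 scale (SE 0.40, adjusted p from limma 0.339), Prrx1 at 1425527_at, with -1.27 (SE 0.33, 0.339), and Zeb1 at 1418926_at, with -0.74 (SE 0.26, 0.41). The recurrence effects were -1.03 in Cre and 0.51 in GFP cells, -0.82 and 0.45, and -0.27 and 0.47 in the same order. Opposite movement was found in 9.28% of all probe sets, and the test of the difference itself did not pass for any of the 3. Outliers within a population could not be assessed with 2 arrays.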

How the results depend on the processing

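Member calls depended more on which arrays were present than on the scaling. Between Cre Recurred and GFP Recurred cells (8 called), the stricter threshold called 0, and leaving out 1 array gave 0 to 8, with 0 when either GFP Recurred array or the first Cre Recurred array was dropped. Between Cre Recurred and Cre Naïve cells (1 called), cyclic loess, the stricter threshold and the compared arrays alone each called 0, and leaving out 1 array gave 0 to 7. For the interaction (0 called), leaving out 1 array gave 0 to 7. With the lone array of a population assumed to vary like the others, these fits have fewer residual degrees of freedom. Of 78 counts under alternatives 60 stayed within 1.5 times, and a count of 0 that stayed 0 was included. Over the whole array 0 probe sets were called between the naïve populations and 6 between GFP Recurred and GFP Naïve cells. Counts of these comparisons thus had little room to move. The labels do not say whether the replicate numbers pair the samples. Correlations of same-numbered deviations ran from -0.25 to 0.31, the highest being that of GFP Recurred with Cre Recurred cells, which does not settle the question. With the replicate block 0, 0, 1, 8 and 0 member probe sets were called in the 5 comparisons. No called value changed sign. Signs of uncalled gene values changed in 10, 5, 2, 6 and 3 of 130 values per comparison. Leaving out single arrays for the companion gene lists was added after seeing the data. No SAM-type value was computed for the interaction. Dim probe sets, near the level of silent markers, limit what could be seen for 1458004_at of Prrx1, 1420243_at of Zeb1 and the lower Fap arrays.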
